A study of Ovis aries with 6 samples.

Results

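The miR-26 family of sheep miRNAs was described in the rumen of male Hu sheep fetuses from undernourished and normally fed ewes. Its members are the entries of the deposited lists that are named oar-miR-26 with any letter or arm, and 2 of the 1253 listed miRNAs fitted that name, oar-miR-26a and oar-miR-26b (miR-26a and miR-26b below). Rumen tissue of 3 fetuses of the UN group, whose ewes had their feed restricted to a small part of baseline intake from day 115 of gestation, and of 3 fetuses of the CON group, whose ewes kept the baseline intake, was sequenced as 1 small RNA library per fetus. All animals are labelled WT, every label names day 115, and the methods of the study place the collection of the tissue at the end of the restriction. The title of the deposited series names jejunum and ileum, whereas every sample is labelled rumen, and the sample labels were followed. Nothing in the labels says which fetuses shared a ewe, so p-values measure the spread between these libraries.

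A miRNA is a short RNA that guides a silencing complex to mRNAs, mostly through its seed, the bases 2 to 8 from the 5′ end. Members of the miR-26 family share a single seed. In human and mouse cells they are known to repress EZH2, the enzyme that methylates histone H3 at lysine 27, and several cyclins and cyclin-dependent kinases, and miR-26a is known for its part in the differentiation of smooth muscle cells. Mammalian miR-26 genes lie inside genes for small C-terminal domain phosphatases (CTDSP1, CTDSP2 and CTDSPL), which dephosphorylate the retinoblastoma protein and so act on the same step of the cell cycle. In the RefSeq gene table of the sheep assembly ARS-UI_Ramb_v3.0, MIR26A (gene 102465822) lies on chromosome 3 within the ends of CTDSP2, and MIR26B (gene 102465823) lies on chromosome 2 within the ends of CTDSP1. The table gives gene ends only, and its assembly may differ from the genome used in the study, so no position is printed here.

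The mature sequences of both members, and of the entry novel_miR_341, are shown because they show what sets the members apart and which other entry cannot be told from miR-26a by sequence. The capitals mark the seed.
oar-miR-26a: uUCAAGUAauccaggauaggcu
oar-miR-26b: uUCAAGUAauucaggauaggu
novel_miR_341: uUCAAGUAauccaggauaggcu
The members had the same seed and the same base at 19 of 21 positions compared without gaps from the 5′ end. They differed by C11U and C21U (the base of miR-26a, the position from 1 at the 5′ end, then the base of miR-26b), and miR-26a was 1 base longer, at 22 against 21. Across the 1253 sequences of the study's supplement, 3 entries carried this seed, namely both members and novel_miR_341. The last is a newly predicted entry whose sequence is identical to that of miR-26a.

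Levels are given in RPM, the reads of a miRNA in every 1000000 that the study assigned to any listed miRNA, not divided by length, from libraries of 18584326 to 35555822 assigned reads. The RPM of each library were whole multiples of the value of 1 read, so the reads behind them could be recovered. Levels of different miRNAs also carry the preferences of adapter ligation and PCR, which were not measured here. In bulk tissue, fewer cells of a type and less RNA per cell cannot be told apart.

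miR-26a was one of the main miRNAs of the fetal rumen and took between 3.23% and 4.59% of the assigned reads of a library, about 10 times the share of miR-26b. It stood at 45867, 45382 and 37700 RPM in the UN libraries, against 33399, 42331 and 32318 RPM in the CON libraries. The groups overlapped, because CON replicate 2 lay above UN replicate 3. The other UN libraries lay above all CON libraries, and CON replicates 1 and 3 lay below all UN libraries. The means were 42983 ± 4582 RPM in UN and 36016 ± 5496 RPM in CON (SD, n = 3 each), a ratio of 1.19. Behind the value of CON replicate 2 stood 786693 reads, the fewest of the 6 libraries, and its exact 95% binomial interval of 42240 to 42423 RPM was far narrower than the spread between fetuses (intervals cover counting error only).

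miR-26b stood at 4849, 4521 and 3439 RPM in the UN libraries, against 3597, 4811 and 3144 RPM in the CON libraries. These groups overlapped more widely, since UN replicate 3 lay below CON replicates 1 and 2, and UN replicate 2 below CON replicate 2. The means were 4269 ± 738 RPM in UN and 3851 ± 862 RPM in CON (SD, n = 3 each), a ratio of 1.11. Thus the member with more reads also had the larger ratio between the groups, a difference between members that is given below as their balance within a library.

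The comparison of UN with CON asks whether maternal undernutrition moved the family. limma on log2(RPM + 1), fitted over the 567 miRNAs that passed a filter on low reads (both members passed), gave miR-26a a log2 fold change of 0.26 (standard error 0.17, 95% interval -0.11 to 0.63, Benjamini-Hochberg adjusted p = 0.85). In miR-26b it was 0.16 (standard error 0.22, 95% interval -0.31 to 0.62, adjusted p = 0.92 from limma). Neither passed the test at an adjusted p of 0.05. As background, 0% of the 567 miRNAs were called up and 0% called down at that threshold (4 and 25 at an unadjusted p under 0.05 in limma; edgeR on the recovered reads called 1 up and 0 down, DESeq2 2 up and 2 down). The intervals allow a fold of 0.93 to 1.54 for miR-26a and of 0.81 to 1.54 for miR-26b.

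**Figure D1:**
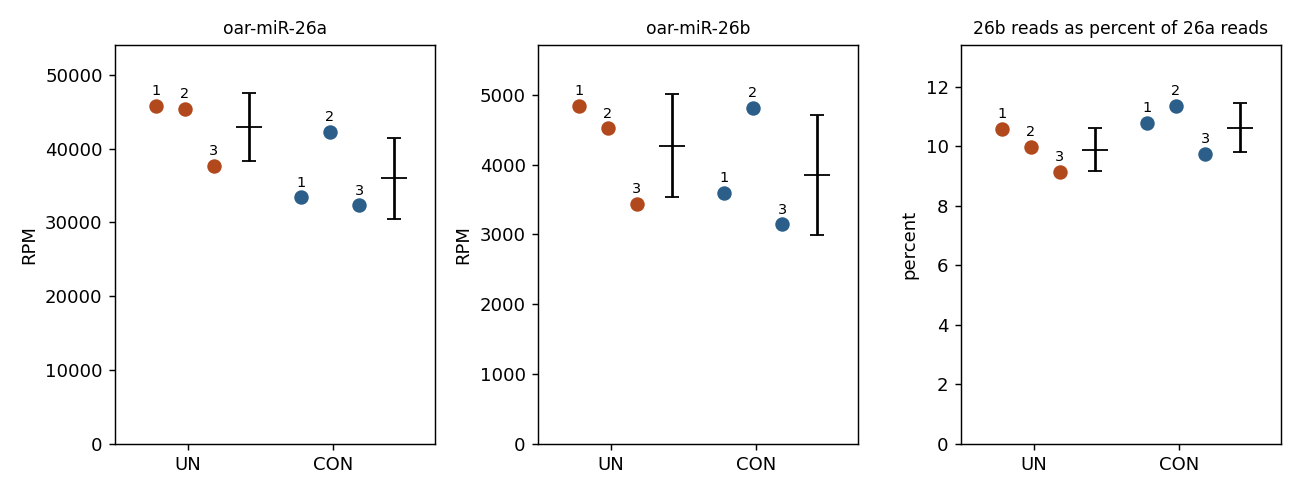
RPM of oar-miR-26a (left) and oar-miR-26b (middle) and the reads of miR-26b as a percent of those of miR-26a (right), with the UN libraries left of the CON libraries. Each point is a library with its replicate number, and the bar beside each group is its mean with SD (n = 3). In all 3 panels the groups overlap: miR-26a lies between 37700 and 45867 RPM in UN and between 32318 and 42331 RPM in CON.

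The fold changes of both members lay high among those of all miRNAs, the median of which was -0.12 on the log2 scale in the deposited RPM. Relative to that median, miR-26a lay 0.38 and miR-26b 0.28 higher on the log2 scale. Among the 50 most abundant miRNAs, 13 had a fold change above 0 and the median log2 fold change was -0.09. In that set miR-26a ranked as number 2 and miR-26b as number 7 from the top. Among all 567 miRNAs tested, miR-26a was number 31 and miR-26b number 54 by fold change, and number 87 and number 293 by p-value. These places are a description and carry no test.

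**Figure D2:**
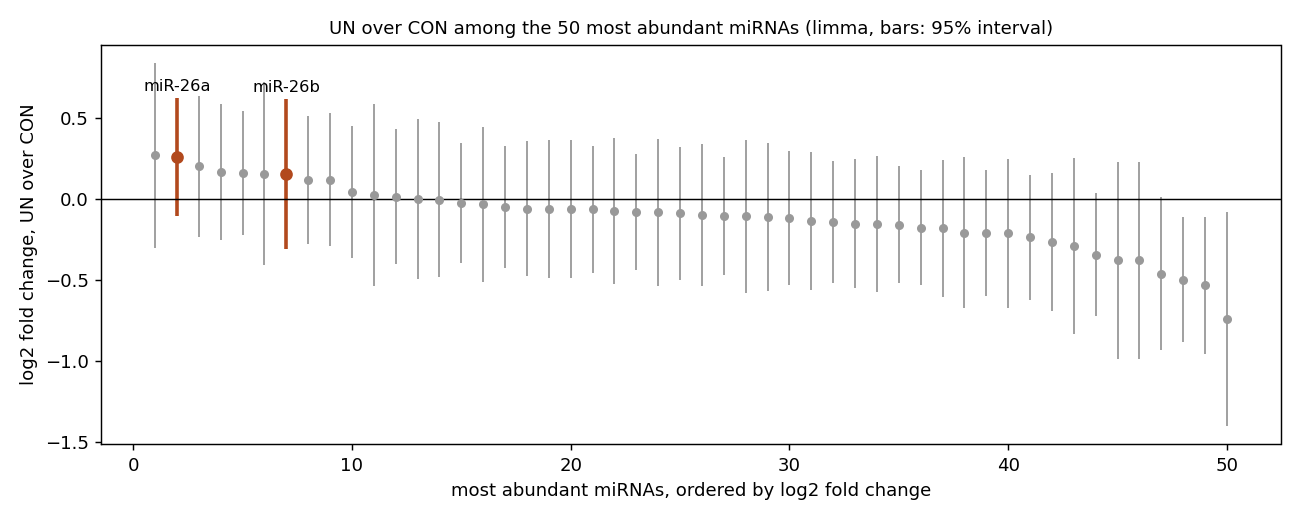
Log2 fold change of UN over CON (vertical axis) for the 50 most abundant miRNAs, ordered along the horizontal axis from the highest to the lowest, with 95% limma intervals as bars. miR-26a (0.26) is number 2 and miR-26b (0.16) is number 7, and both intervals include 0.

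The fold change of miR-26a moved with the scaling of the RPM. CON replicate 2 had a TMM factor (edgeR's trimmed mean scaling) of 1.28, whereas the other libraries lay between 0.91 and 1.02, and miR-143, a smooth muscle miRNA, took 29.5% of its reads, against 37.7% to 50.03% in the others. With RPM scaled by the TMM factors, miR-26a stood at 46976, 49298 and 40334 in the UN libraries, against 32815, 33111 and 35330 in the CON libraries. On that scale the groups did not overlap, and every UN library lay above every CON library. In these same scaled values, 6% of the 567 miRNAs had every UN library above every CON library, against 1.06% in the deposited RPM. The log2 fold change of miR-26a was then 0.43 (unadjusted p = 0.0080, number 6 of 567 by p-value, adjusted p = 0.75 from limma). TMM scaling moved the median of all miRNAs to 0.01, so that miR-26a lay 0.42 above it on the log2 scale.

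Leaving the reads of miR-143 out of the total had a like result. Per 1000000 of the other reads, miR-26a stood at 73599, 80725 and 73204 in UN, against 57854, 60037 and 64668 in CON. Here too the groups did not overlap, as was so for 3% of the 567 miRNAs in this direction, and the log2 fold change was 0.32 (unadjusted p = 0.020, adjusted p = 0.71 from limma). Without CON replicate 2, the deposited RPM gave a log2 fold change of 0.38 (unadjusted p = 0.022, adjusted p = 0.38 from limma). No scaling or left-out library brought miR-26a past the adjusted threshold.

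In miR-26b the groups overlapped under each scaling. The TMM-scaled values were 4966, 4911 and 3679 in UN, against 3534, 3763 and 3437 in CON, where UN replicate 3 lay below CON replicate 2. The log2 fold change on that scale was 0.32 (unadjusted p = 0.058, adjusted p = 0.80 from limma). Without the reads of miR-143 it was 0.21 (adjusted p = 0.71 from limma). Without CON replicate 2 it was 0.33 (adjusted p = 0.76 from limma), and without UN replicate 1 or CON replicate 3 it was 0.06 or 0.02.

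**Figure D3:**
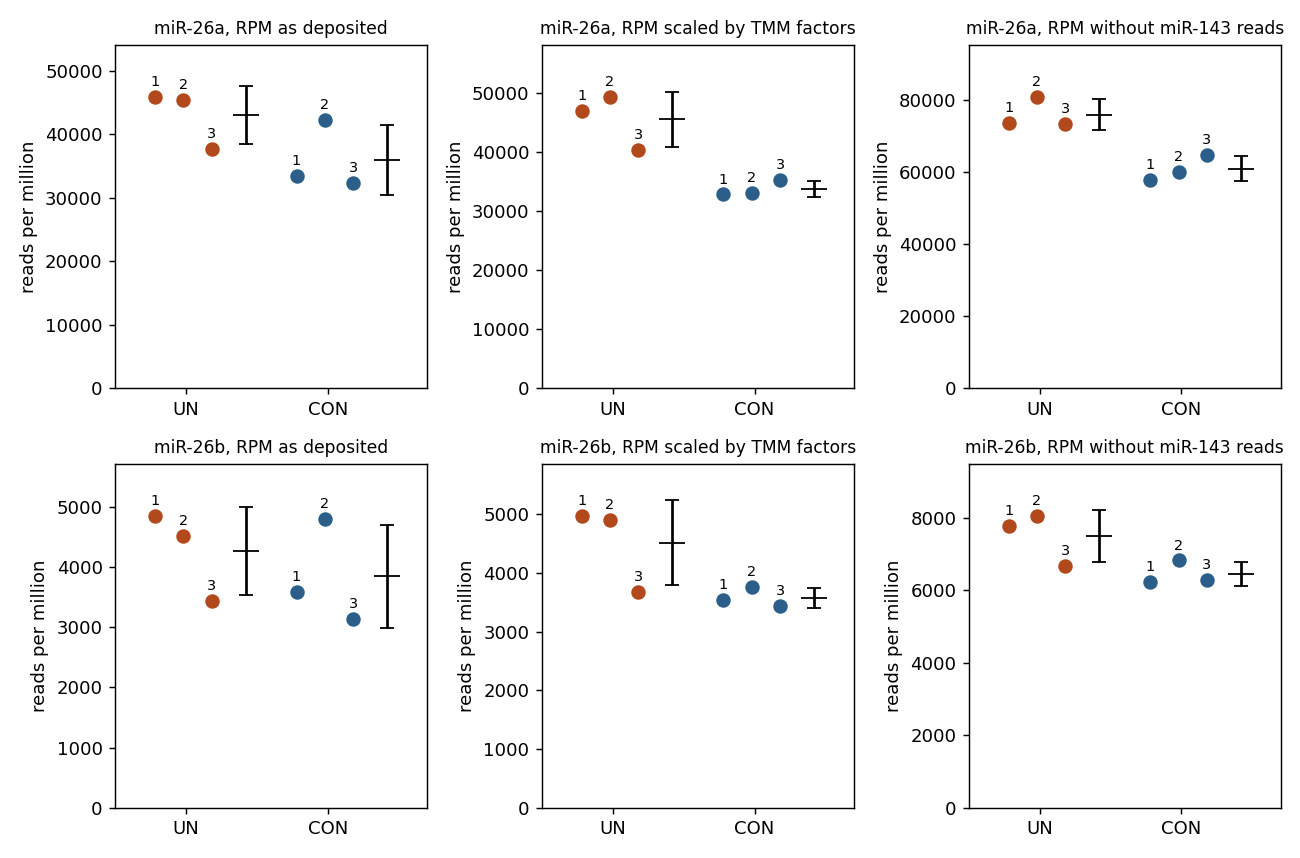
Levels of miR-26a (upper row) and miR-26b (lower row) per library in RPM, as deposited (left), scaled by TMM factors (middle) and over the reads other than those of miR-143 (right), with UN left of CON and mean with SD beside each group (n = 3). For miR-26a the groups part in the middle and right panels, where the lowest UN library lies at 40334 and 73204, against 35330 and 64668 for the highest CON library. For miR-26b they overlap in all panels.

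The number of assigned reads also moved with the members. The 3 libraries with the fewest assigned reads (CON replicate 2 and UN replicates 1 and 2, at most 20480062) had the highest miR-26a and the highest miR-26b, and the 3 with the most had the lowest. Within the libraries with the fewest reads, miR-26a averaged 45625 RPM in 2 UN libraries and 42331 RPM in 1 CON library. Within those with the most reads it stood at 37700 RPM in 1 UN library and averaged 32859 RPM in 2 CON libraries. The log2 differences of UN minus CON were 0.11 and 0.20 for miR-26a and -0.039 and 0.032 for miR-26b. With 1 library in an arm of each no test was made, the split was chosen after seeing the data, and the part of depth in the levels was not tested.

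Markers of the main tissues of the rumen wall were present in all libraries, and none was at 0. The smooth muscle marker miR-143 ranged between 376794 and 485000 RPM in UN and between 294912 and 500253 RPM in CON. The 3 epithelial markers miR-200a, miR-200b and miR-200c summed to 11663 to 14196 RPM in UN, against 14495 to 18317 RPM in CON, so that these groups did not overlap. Taken singly, only miR-200b parted the groups (4358 to 5523 RPM in UN, 6477 to 7397 RPM in CON), whereas miR-200a and miR-200c overlapped. In the deposited RPM 12.3% of the miRNAs tested had every UN library below every CON library. limma on the deposited RPM gave miR-200b a log2 fold change of -0.50 (unadjusted p = 0.016, adjusted p = 0.84). With TMM scaling the epithelial sum ranged between 12478 and 14540 in UN and between 14328 and 15846 in CON, and the groups overlapped. That overlap holds for the sum under TMM only. Whether rescaled miR-200b alone, or the sum over the reads other than those of miR-143, also overlapped was not tested. miR-199a-3p, a mesenchymal marker, ranged between 11960 and 15475 RPM in UN and between 13166 and 19963 RPM in CON. The lymphocyte marker miR-150 reached at most 6.02 RPM. The striated muscle marker miR-133 ranged between 160 and 280 RPM in UN and between 232 and 268 RPM in CON. miR-194, a marker of gut endoderm and liver, ranged between 119 and 134 RPM in UN and between 111 and 144 RPM in CON. The part of tissue makeup in the levels of miR-26a was not tested.

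The balance between both members does not depend on scaling. miR-26b had 10.6%, 9.96% and 9.12% of the reads of miR-26a in the UN libraries, against 10.8%, 11.4% and 9.73% in the CON libraries. The groups overlapped, with the lowest value in UN replicate 3 and the highest in CON replicate 2. The means were 9.88% ± 0.73 in UN and 10.6% ± 0.83 in CON (SD, n = 3 each). The difference of the mean log2 ratio, -0.10, gave p = 0.4 in an exact two-sided permutation test, where 3 fetuses against 3 cannot go below 0.1. Over the 6 libraries this balance varied less than either level, with a coefficient of variation of 7.86%, against 14.99% for miR-26a and 18.6% for miR-26b in RPM.

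Both members together held 50716, 49903 and 41139 RPM in the UN libraries, against 36997, 47142 and 35462 RPM in the CON libraries. In this sum miR-26a made up between 89.8% and 91.6%, so the family total followed it. The sum averaged 4.73% ± 0.53 of the assigned reads in UN and 3.99% ± 0.63 in CON (SD, n = 3 each). Its log2 difference of 0.25 gave p = 0.2 in the exact two-sided permutation test. It was 0.42 with TMM scaling and 0.31 without the reads of miR-143, both with the smallest p that the test can give, 0.1.

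novel_miR_341 listed far fewer reads than miR-26a, although the sequences printed above are the same. Its counts were too low to show whether they followed those of miR-26a over the libraries. novel_miR_341 had 15, 10 and 29 reads in the UN libraries, against 11, 15 and 17 reads in the CON libraries. That is 0.80, 0.49 and 1.07 RPM in UN and 0.45, 0.81 and 0.48 RPM in CON. For every 1000000 reads of miR-26a it listed between 10.8 and 28.4 reads. The exact 95% binomial intervals ran from 0.23 to 0.90 RPM in UN replicate 2 and from 0.72 to 1.54 RPM in UN replicate 3, and the intervals of all 6 libraries overlapped. limma gave it a log2 fold change of 0.17 with a standard error of 0.18 (adjusted p = 0.85), on a scale that understates changes at such levels. The sources used here do not say how reads were divided between entries of identical sequence. Adding these reads to miR-26a moved neither the family sum nor the balance of the members.

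In the order of mean levels, miR-26a was number 4 and miR-26b number 29 of all listed miRNAs. let-7i, a member of the let-7 family that restrains growth, stood just above miR-26a, with means over the 6 libraries of 40511 RPM for let-7i and 39500 RPM for miR-26a. They were not parted by their spread, since let-7i was the higher in 2 of the 6 libraries. miR-21, a miRNA widely known for promoting growth and survival, stood next below at 32578 RPM and was lower than miR-26a in all 6 libraries. Around miR-26b, novel_miR_484 (mean 4612 RPM) was higher in 5 libraries and miR-125b (mean 3939 RPM) was higher in 4 libraries in spite of its lower mean. Among the 50 most abundant miRNAs, miR-26a had the number 23 and miR-26b the number 32 lowest coefficient of variation. With TMM scaling these places were 41 and 40, and the coefficients were 18.03% and 17.3% beside a median of 12.03% for the 50 miRNAs.

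The miRNAs whose levels ran most like those of the members were found from the SD, over the 6 libraries, of the log2 ratio of their reads to the reads of the member, among 150 miRNAs with a mean of at least 100 RPM. A small SD means a nearly fixed ratio, and this measure does not depend on scaling. Their sequences are shown because they fall into families by seed, which is again in capitals.
oar-miR-23b: aUCACAUUgccagggauu
oar-miR-23a: aUCACAUUgccagggauuucca
novel_miR_524: aUCACAUUgccagggauuaccacg
oar-miR-181a: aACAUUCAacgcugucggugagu
novel_miR_10: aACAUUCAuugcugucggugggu
novel_miR_672: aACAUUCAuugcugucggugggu
For miR-26a the closest was miR-23b, with an SD of 0.06, followed by novel_miR_524 (0.08), miR-23a (0.09), miR-26b (0.11) and miR-181a (0.13), beside a median of 0.28 over the 150. The first 3 of these are all the entries with the seed UCACAUU. miR-23b had between 4.11% and 4.59% of the reads of miR-26a in every library. The listed 18 bases of miR-23b are also the beginning of miR-23a and of novel_miR_524, so a short read cannot be told apart between them and they are not 3 independent cases.

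For miR-26b the closest was miR-181a, with an SD of 0.05, followed by miR-23a (0.06), novel_miR_672 (0.10), novel_miR_10 (0.11) and novel_miR_524 (0.11), beside a median of 0.25. Of these 5, 3 had the seed ACAUUCA, carried by 4 entries in all. novel_miR_10 and novel_miR_672 have identical sequences and may list the same reads. miR-26a came as number 6 for miR-26b at 0.11. miR-181a had between 19.0% and 20.5% of the reads of miR-26b in every library. None of the miRNAs in either set passed the adjusted test between UN and CON, and their log2 fold changes ran between 0.07 for novel_miR_10 and 0.20 for miR-23b.

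**Figure D4:**
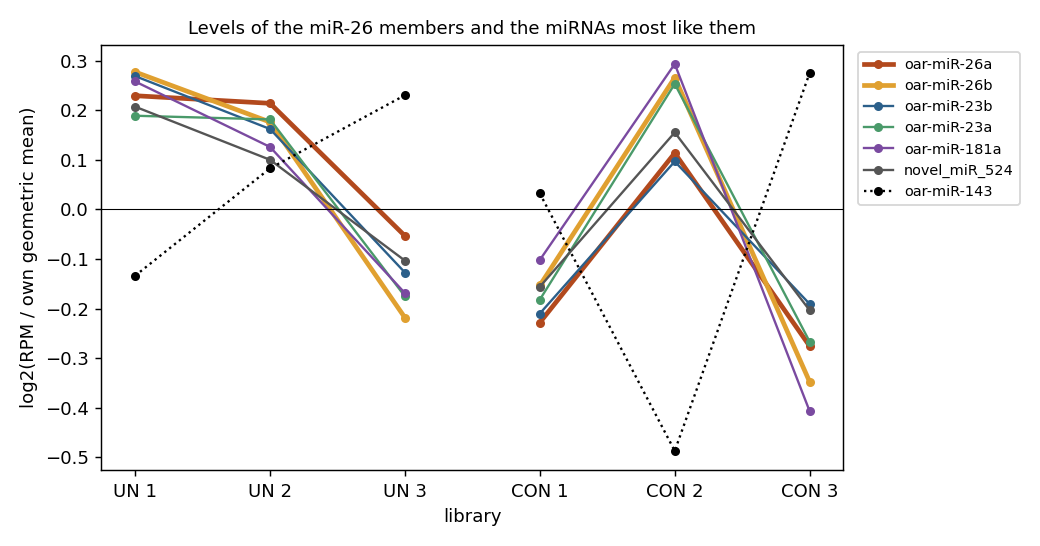
Level of each miRNA in each library as log2 of its RPM over its own geometric mean over the 6 libraries (vertical axis), with the UN libraries left of the CON libraries. Lines only join values of the same miRNA. miR-26a and miR-26b (thick) run with miR-23a, miR-23b, novel_miR_524 and miR-181a, high in UN replicates 1 and 2 and CON replicate 2, and miR-143 (dotted) has its lowest level in CON replicate 2.

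Other miRNAs of cell growth are given by name as context. Of 10 miRNAs that, like miR-26, are known to restrain the cell cycle (7 of the let-7 family, miR-16b, miR-29a and miR-29b), 2 had a log2 fold change above 0 and 8 below 0, none passed the adjusted test (0 at an unadjusted p under 0.05 in limma), and the median was -0.08 beside -0.12 for all miRNAs. The most abundant was let-7i, which also had the highest value, 0.17 (42321 ± 1644 RPM in UN and 38701 ± 11556 RPM in CON, SD, n = 3 each), and miR-16b had the lowest, -0.21 (adjusted p = 0.85 from limma). With TMM scaling 8 of the 10 lay above 0 and the median was 0.06, beside 0.01 for all. Over all 567 miRNAs, 26.5% lay above 0 in the deposited RPM and 51.5% with TMM scaling, so the signs in this list moved with those of all miRNAs. In the deposited RPM 4 of the 10 had every UN library below every CON library, beside 12.3% of all. These were let-7a, let-7b, let-7d and miR-16b, and with TMM scaling their log2 fold changes lay between -0.04 for miR-16b and 0.06 for let-7b.

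Of 7 miRNAs known to promote proliferation (miR-17-5p, miR-106a, miR-106b, miR-19b, miR-25, miR-21 and miR-221), 0 had a fold change above 0 in the deposited RPM (26.5% of all miRNAs did), 5 did with TMM scaling (51.5% of all did), and none passed the adjusted test (0 at an unadjusted p under 0.05 in limma). The median was -0.11 on the log2 scale beside -0.12 for all miRNAs, and 0.06 beside 0.01 with TMM scaling. In the deposited RPM 2 of the 7 had every UN library below every CON library, beside 12.3% of all. Among them miR-106a stood at a low level and was parted narrowly, with at most 7.10 RPM in UN and at least 7.14 RPM in CON. miR-17-5p had the lowest value at -0.42 (-0.25 with TMM scaling), with 175 ± 14.3 RPM in UN and 234 ± 13.4 RPM in CON (SD, n = 3 each). miR-17-5p was the other of these 2, and with TMM scaling its groups overlapped, at 176 to 204 in UN and 195 to 249.8 in CON. miR-221 had the highest at -0.03 (0.13 with TMM scaling), and miR-21, the most abundant, had -0.08 (0.09 with TMM scaling).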

How the data were processed

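Small RNA libraries of 3 UN and 3 CON fetal rumens were analysed. The authors built the libraries from gel-selected small RNA, aligned the cleaned single-end reads with Bowtie2 to a sheep genome and deposited 1 value per miRNA and library. The Bowtie2 version, the program for new miRNAs and the miRBase release were not given in the sources used here. The deposited unit is RPM, although the columns are named TPM, because the values sum to 1000000 and are not divided by length. Divided by the smallest value of their library, 100% of the 6489 values above 0 came out whole (within 0.001 reads).

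limma 3.58.1 (trend, R 4.3.3) compared log2(RPM + 1) over 567 miRNAs kept by edgeR's filterByExpr (minimum count 10, minimum total 15) with Benjamini-Hochberg adjustment. edgeR 4.0.16 and DESeq2 1.42.0 on the recovered reads were alternatives, as were scalings, pseudocounts and left-out libraries. Single values were compared by exact permutation tests. The fit was tested on simulated reads with changes larger than those seen in the members. The most abundant miRNAs, miR-26a among them, were left unchanged in that simulation. It therefore does not say whether a small change in miR-26a would be found. No pair of libraries in a group held the same reads (chi-square of at least 437 per degree of freedom). Members and lists were chosen with earlier results of these data known. Text names the members, entries with their seed, their neighbours in level, the 5 miRNAs most like each, the extremes and most abundant of each list, and miR-143.

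Sequences come from the study's supplementary list of all miRNAs, and gene names from RefSeq. Both members matched there by name.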

Additional observations from a re-analysis of the deposited data

How the results depend on the processing

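Over the alternatives run, the log2 fold change of miR-26a kept its direction and missed the adjusted threshold in all 14 planned ones (0.19 to 0.43, adjusted p from 0.25 to 1.00), as did that of miR-26b (0.02 to 0.34) and that of novel_miR_341 (0.05 to 0.68). Leaving out 1 library gave 0.19 to 0.38 for miR-26a, 0.02 to 0.33 for miR-26b and 0.06 to 0.30 for novel_miR_341. On the recovered reads edgeR gave miR-26a 0.43 (unadjusted p = 0.0067, adjusted p = 0.82) and DESeq2 0.43 (unadjusted p = 0.0022, adjusted p = 0.25). For miR-26b edgeR gave 0.34 (unadjusted p = 0.049, adjusted p = 0.82) and DESeq2 0.33 (unadjusted p = 0.034, adjusted p = 0.86). The split by assigned reads, added after seeing the data, turned miR-26b to -0.039 within the 3 libraries with the fewest reads, and the cause was not tested. The count of miRNAs called up, 0, became 1 with RPM scaled by TMM, 1 without the reads of miR-143, 1 with edgeR and 2 with DESeq2, and the count called down, 0, became 2 with DESeq2. Leaving out 1 library gave 0 to 2 up and 0 to 1 down (2 up and 1 down without CON replicate 2, 1 down without CON replicate 3). The family sum kept its direction (0.17 to 0.42), as did the ratio of miR-26b to miR-26a (-0.17 to -0.05).

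The labels give fetuses of the same number nothing else in common. Their deviations from the group means correlated at -0.07, 0.07 and 0.19 over the 567 miRNAs, and those of fetuses of different number at -0.20 to 0.17. Values this weak cannot show whether fetuses of the same number shared a batch, which was not tested. With the replicate block the fold changes stayed at 0.26 (adjusted p = 0.84 from limma) for miR-26a and 0.16 (adjusted p = 0.89) for miR-26b, with 0 called up and 0 called down, and the exact sign-flip test gave p = 0.25, its smallest, for the family sum and for the ratio. Counting error is large for novel_miR_341, with 10 to 29 reads per library, and small for the members, with at least 88490. The part of depth in the levels of the members was not tested.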
